A study of Mus musculus with 11 samples.

Results

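The MHC class II antigen presentation genes examined here were the 7 listed genes H2-Aa, H2-Ab1, H2-Eb1, H2-DMa, H2-DMb1, Cd74 and Ciita, matched by symbol in a table of 23420 genes. All 7 passed the filter on low counts, which kept 14531 genes. MHC class II molecules carry peptides from endosomes to the surface of antigen presenting cells, where CD4 T cells read them. They are made mainly by dendritic cells, macrophages and B cells, and their genes are switched on together by the transactivator CIITA, which is recruited to a conserved set of promoter boxes rather than binding DNA by itself. Skeletal tissues hold resident macrophages and lie next to bone marrow, where B cells and dendritic cell precursors are made.

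RNA came from the mandibular condylar fibrocartilage, the tissue that covers the jaw joint, of female C57BL/6 mice. All mice had been ovariectomized at 6 weeks of age and were sampled at 7 weeks, after 1 week with a slow-release pellet that held either placebo or estradiol (0.01 mg, a 60-day release). Wild-type mice (WT) and estrogen receptor alpha knockouts (ERalphaKO, here KO) were used, and the labels do not say how the receptor was deleted. The 4 groups were WT placebo (2 libraries), WT estradiol (3), KO placebo (3) and KO estradiol (3). The labels do not say that each library is a different animal, so p-values measure the spread between these libraries, which may be technical in part. In bulk tissue, fewer cells of a type and less RNA per cell cannot be told apart.

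Totals ran from 15.7 M to 25.5 M counts per library, and 3 counts, used as the floor, equal 0.118 to 0.204 CPM (counts per M of the TMM-scaled total). WT placebo 2 stood apart, with 16.0% of its counts from the ribosomal RNA gene Rn45s against 1.83% to 3.13% in the other libraries. Esr1, the gene of the deleted receptor, was read at 13.4 and 6.60 CPM in WT placebo, 7.89, 6.76 and 6.43 CPM in WT estradiol, 4.86, 3.99 and 2.68 CPM in KO placebo and 3.41, 2.55 and 3.75 CPM in KO estradiol. Every KO library was below every WT library, and transcript remained in all KO libraries. All 9 marker genes of fibrocartilage, such as Col2a1 and Col1a1, were read, with a sum of 106345 to 169314 CPM.

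Promoter windows of 250 bases before the start site were available from RefSeq (build GRCm38.p6) for 4 of the 7 genes, namely H2-Aa, H2-Eb1, H2-DMa and H2-DMb1, all on chromosome 17. They are shown because class II genes are known for a shared promoter layout, an X box followed by a Y box, on which CIITA acts. The letters TGATTGG, an inverted CCAAT box of the Y type, were in the windows of H2-Aa, H2-Eb1 and H2-DMb1, and in 7.23% of 32851 windows when both strands were searched. The letters AAC, any 2 bases and ATGATG, an X box as in H2-Eb1, were in the windows of H2-Eb1 and H2-DMb1 and in 0.119% of all windows. H2-Aa had TGACGTCA, the cyclic AMP response element, upstream of its TGATTGG, and 1.55% of all windows held it. The 80-base stretches below run 5′ to 3′ on the strand of the gene, with these letters in capitals. The last 2 belong to the class II relatives H2-Ob and H2-Oa, which are described further on.
H2-Aa, chr17:34287854-34287933, minus strand: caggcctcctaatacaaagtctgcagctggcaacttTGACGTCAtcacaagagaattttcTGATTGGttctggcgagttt
H2-Eb1, chr17:34305746-34305825, plus strand: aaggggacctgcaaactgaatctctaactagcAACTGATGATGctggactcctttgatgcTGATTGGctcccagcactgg
H2-DMb1, chr17:34153068-34153147, plus strand: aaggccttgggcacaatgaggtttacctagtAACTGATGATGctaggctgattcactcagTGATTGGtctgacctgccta
H2-Ob, chr17:34238786-34238865, plus strand: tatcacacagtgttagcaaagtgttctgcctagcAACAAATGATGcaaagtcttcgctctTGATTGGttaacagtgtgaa
H2-Oa, chr17:34092274-34092353, plus strand: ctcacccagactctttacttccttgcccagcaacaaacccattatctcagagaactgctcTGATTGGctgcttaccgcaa
The box TGATTGG began 50 bases before the start site in H2-Aa, 61 in H2-Eb1, 63 in H2-DMb1, 59 in H2-Ob and 45 in H2-Oa. Neither window of H2-DMa held TGATTGG or this X box in these letters. The motifs were written after these windows had been read, and a match describes letters, not binding.

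Cd74, which encodes the invariant chain, was the most abundant of the 7 genes and Ciita the least. On a scale per length (CPM per kb of merged exons, median of 11 libraries), Cd74 stood at 99.1, H2-Ab1 at 45.3, H2-Aa at 43.8, H2-Eb1 at 21.8, H2-DMb1 at 14.6, H2-DMa at 2.97 and Ciita at 0.371. H2-Ab1 and H2-Aa were neighbours that did not differ beyond their spread: the ratio of H2-Aa to H2-Ab1 counts lay between 0.850 and 1.12 over the 11 libraries. The largest span between libraries was that of Ciita, whose highest CPM was 2.59 times its lowest, and the smallest was that of H2-DMb1, at 1.54 times.

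The genes of the alpha and beta chains H2-Aa, H2-Ab1 and H2-Eb1 differed more between single libraries than between the groups. H2-Aa, the alpha chain of the I-A molecule, had 49.4 and 70.3 CPM in WT placebo, 44.6, 47.0 and 86.5 in WT estradiol, 35.5, 44.3 and 45.1 in KO placebo and 51.8, 57.7 and 80.3 in KO estradiol, in the order of the replicate numbers. Its KO placebo libraries were all below those of WT placebo and KO estradiol, while 1 WT estradiol library, replicate 3, was the highest of all 11. H2-Ab1, the beta chain that pairs with it, had 54.9 and 69.6 CPM in WT placebo, 49.7, 51.0 and 77.5 in WT estradiol, 41.8, 48.2 and 47.6 in KO placebo and 59.2, 59.0 and 76.0 in KO estradiol. In the 4 pairwise comparisons the groups of H2-Ab1 overlapped and separated as those of H2-Aa did, with the same 3 libraries highest. H2-Eb1, a beta chain of the I-E molecule, had 33.8 and 52.1 CPM in WT placebo, 29.6, 30.0 and 58.2 in WT estradiol, 27.1, 36.3 and 37.9 in KO placebo and 32.4, 38.0 and 58.9 in KO estradiol, and its groups overlapped in all 4 pairwise comparisons.

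In the model of the 4 groups, none of the 3 chains passed the test in any comparison, and with the replicate number as a block H2-Aa and H2-Ab1 passed it for estradiol in KO. Estradiol in WT gave log2 differences of -0.01 (SE 0.31) for H2-Aa, -0.07 (SE 0.19) for H2-Ab1 and -0.12 (SE 0.37) for H2-Eb1. In KO the log2 difference between estradiol and placebo was 0.60 for H2-Aa (SE 0.28, adjusted p = 0.322), 0.50 for H2-Ab1 (SE 0.17, adjusted p = 0.173) and 0.35 for H2-Eb1 (SE 0.33, adjusted p = 0.676). Here and below, adjusted p-values come from the quasi-likelihood test of edgeR, with the Benjamini-Hochberg method applied to all 14531 genes of a comparison, and called means an adjusted p under 0.05. Same-numbered placebo and estradiol libraries of KO deviated together (r 0.142 to 0.386 for the 3 pairs, -0.331 to 0.0373 for the 6 other pairs), and with the block the KO values were 0.58 for H2-Aa (adjusted p = 0.0491) and 0.49 for H2-Ab1 (adjusted p = 0.0375). The 95% interval without the block for H2-Aa in KO ran from -0.03 to 1.24 and that for H2-Ab1 from 0.12 to 0.88. Between KO and WT under placebo, the log2 differences were -0.52 for H2-Aa, -0.44 for H2-Ab1 and -0.34 for H2-Eb1, and under estradiol 0.09, 0.13 and 0.14.

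**Figure D1:**
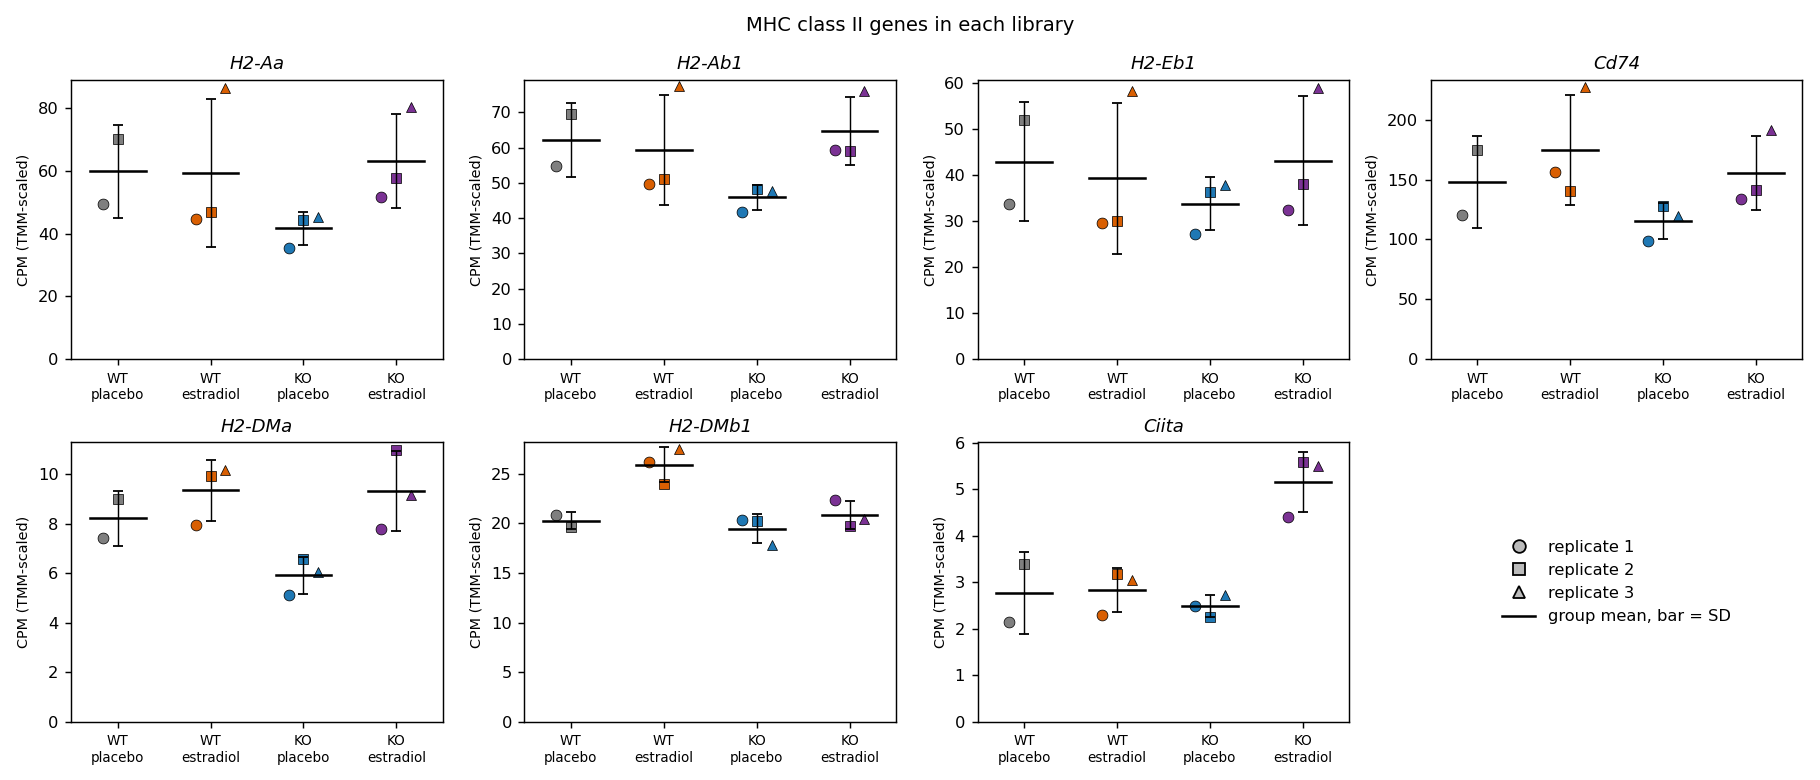
CPM of the 7 class II genes in each of the 11 libraries, 1 panel per gene with its own axis from 0; marker shapes give the replicate number, the line is the group mean and the bar the SD. Replicate 3 of WT estradiol was the highest library for H2-Aa, H2-Ab1 and Cd74, and for Ciita the 3 KO estradiol libraries, at 4.41 to 5.58 CPM, lay above all others.

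Cd74, the chaperone that fills the groove until the endosome, varied with the chains. Its levels were 120.4 and 175 CPM in WT placebo, 157, 140.3 and 227 in WT estradiol, 98.4, 128 and 119.9 in KO placebo and 134, 141 and 191 in KO estradiol. The KO estradiol libraries lay above the KO placebo libraries by a narrow margin, and the groups overlapped in the other pairwise comparisons. KO placebo also lay below WT estradiol, a pair that was not compared. The log2 difference was 0.43 in KO (SE 0.21, adjusted p = 0.353) and 0.24 in WT (SE 0.24, adjusted p = 0.741), neither called. Cd74 counts were 2.75 to 3.15 times those of H2-Ab1 in WT estradiol and 2.19 to 2.65 times in the other 8 libraries, so these ratios did not overlap.

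The H2-DM heterodimer, which removes the invariant chain fragment and edits the peptide, had a low alpha chain transcript and a steadier beta chain. H2-DMa had 7.43 and 8.98 CPM in WT placebo, 7.93, 9.93 and 10.2 in WT estradiol, 5.12, 6.56 and 6.03 in KO placebo and 7.76, 10.98 and 9.16 in KO estradiol. KO placebo was the lowest group of H2-DMa, with no overlap with WT placebo or KO estradiol. The log2 difference of H2-DMa between estradiol and placebo was 0.66 in KO (SE 0.17, adjusted p = 0.0653), just outside the threshold, and 0.65 with the replicate block, where it was called (adjusted p = 0.0178). It was 0.19 in WT (SE 0.19, adjusted p = 0.743).

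H2-DMb1 followed another order. It had 20.9 and 19.7 CPM in WT placebo, 26.2, 24.0 and 27.5 in WT estradiol, 20.4, 20.2 and 17.8 in KO placebo and 22.4, 19.7 and 20.5 in KO estradiol. The 3 WT estradiol libraries were above all other libraries. The log2 difference was 0.35 between estradiol and placebo in WT (SE 0.11, adjusted p = 0.150) and -0.31 between KO and WT under estradiol (SE 0.10, adjusted p = 0.0582). H2-DMb1 missed the threshold in each, and DESeq2 on the same genes called it lower in KO than in WT under estradiol (adjusted p = 0.0440). H2-DMb1 and its neighbour H2-DMb2 are close copies, and how reads were shared between them is unknown.

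Ciita, the transactivator that sets class II transcription, was the member that passed the test with and without the block. It had 2.15 and 3.40 CPM in WT placebo, 2.29, 3.17 and 3.05 in WT estradiol, 2.49, 2.25 and 2.72 in KO placebo and 4.41, 5.58 and 5.50 in KO estradiol. The KO estradiol libraries were above all 8 others, which overlapped among themselves. Group means ± SD were 2.78 ± 0.883 (n = 2), 2.84 ± 0.479 (n = 3), 2.49 ± 0.234 (n = 3) and 5.16 ± 0.652 CPM (n = 3), from 40 to 123 counts per library. With estradiol in KO, Ciita rose 2.07-fold (log2 difference 1.05, SE 0.23, 95% interval 0.56 to 1.54, adjusted p = 0.0309), and under estradiol it was 1.82-fold higher in KO than in WT (log2 difference 0.86, SE 0.22, adjusted p = 0.0275). The log2 difference between estradiol and placebo in WT was 0.04 (SE 0.26, adjusted p = 0.974). The test of the difference between the effects in WT and in KO gave -1.01 on the log2 scale (SE 0.34, adjusted p = 0.213), so the effects were not shown to differ.

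Both calls of Ciita were lost without certain libraries. The log2 difference in KO stayed between 0.98 and 1.15 when single libraries were left out, and its adjusted p was 0.0501 when WT estradiol 2 was dropped, 0.122, 0.103 and 0.0619 when KO placebo 1, 2 or 3 was, and 0.113 and 0.0838 when KO estradiol 2 or 3 was. Under estradiol, the adjusted p for KO against WT was 0.105 without WT estradiol 1, 0.0603 without WT estradiol 3, 0.0864 without KO estradiol 2 and 0.0872 without KO estradiol 3, with log2 differences of 0.72 to 0.97. The ratio of target to regulator was lowest in KO estradiol. H2-Ab1 had 10.6 to 13.8 counts per Ciita count in KO estradiol and 16.1 to 25.5 in the other libraries, with no overlap. Ciita alone already separated these libraries, so the ratio restates its level in part and is not separate evidence.

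The counts of called members are set here beside the shares over all genes tested. For other counts, here and below, the totals over the 14531 genes were as follows. An unadjusted p under 0.05 was found for 2038 genes with estradiol in WT, 2392 in KO and 1683 for the interaction. Between the genotypes it was found for 1338 under placebo and 3909 under estradiol. In the same order of comparisons, DESeq2 called 656, 952, 561, 36 and 2225 genes, and edgeR with the replicate block 257, 629, 301, 17 and 1799. With estradiol in KO, 1 of 7 was called, against 2.73% of genes (2.36% higher), and with the replicate block 4 of 7 (H2-Aa, H2-Ab1, H2-DMa and Ciita), against 4.33% (3.73% higher). In the same comparison 5 of 7 had KO estradiol libraries that all lay above the KO placebo libraries, against 12.4% of genes (24.8% with no overlap in either direction). The 5 were H2-Aa, H2-Ab1, H2-DMa, Cd74 and Ciita, and the log2 differences of the 7 ran from 0.10 to 1.05 with a median of 0.50, beside a median of 0.00 over all genes. With estradiol in WT, edgeR called 0 of 7 (1.55% of genes, 0.654% higher and 0.895% lower; 1 of 7 at an unadjusted p under 0.05 and 0 by DESeq2), the median was 0.04, and H2-DMb1 was the member whose groups did not overlap (27.0% of genes). The interaction was called for 0 of 7 by edgeR (1.15% of genes; 1 at an unadjusted p under 0.05, 0 by DESeq2), with a median of -0.48.

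Between the genotypes, edgeR called 0 of 7 under placebo (0.00688% of genes; 2 at an unadjusted p under 0.05, 0 by DESeq2). All 7 log2 differences were below 0, from -0.52 to -0.06 with a median of -0.35. Without WT placebo 2, the library that stood apart, Ciita turned to 0.21 and H2-Eb1 to 0.000435. With all libraries, H2-Aa, H2-Ab1 and H2-DMa had KO libraries that all lay below those of WT (13.8% of genes). Under estradiol, 1 of 7 was called, Ciita, against 11.5% of genes (7.27% higher, 4.20% lower). Ciita was higher and H2-DMb1 lower with no overlap, which 34.6% of genes had (17.7% higher), and the median of the 7 was 0.09. The comparisons share groups: KO placebo, which had the lowest mean CPM for all 7 members, enters both the estradiol effect in KO and the genotype difference under placebo.

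**Figure D2:**
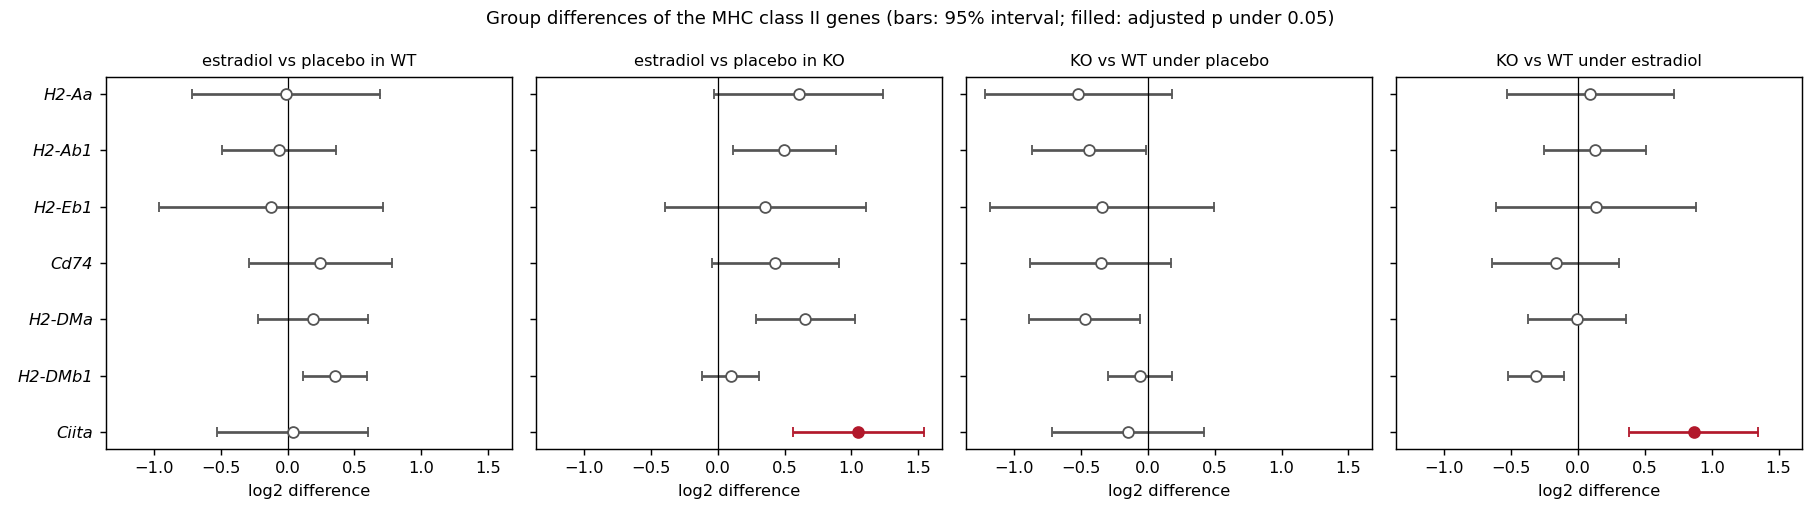
Log2 differences of the 7 class II genes in 4 comparisons, with bars for the 95% interval and filled points for an adjusted p under 0.05. Ciita is filled for estradiol against placebo in KO (1.05) and for KO against WT under estradiol (0.86); all 7 points lie above 0 in the first of these and below 0 for KO against WT under placebo.

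The authors' deposited tables list more members for estradiol in KO. In the authors' deposited table of KO estradiol over KO placebo, 5 members had an adjusted p under 0.05, as did 1074 genes in all. In the authors' deposited table these were Ciita (log2 fold change 1.00, adjusted p = 0.00164), H2-Ab1 (0.49, 0.00294), H2-Aa (0.59, 0.00748), H2-DMa (0.63, 0.0300) and Cd74 (0.42, 0.0483). The authors' deposited table of KO over WT under estradiol lists Ciita alone of the 7 (0.84, adjusted p = 0.0130), among 1959 genes in all. The authors' deposited tables list none of the 7 for estradiol in WT (497 genes in all) or for KO over WT under placebo (36 genes in all).

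The likeness of the members from library to library was described by their correlation with a shared profile. Each member was scaled to mean 0 and SD 1 of log2 CPM over the 11 libraries, and the mean of the 7 gave a class II profile, which contains each member and so raises its r. H2-Aa, H2-Ab1 and Cd74 followed it with Pearson r of 0.962, 0.958 and 0.948, H2-DMa with 0.846 and H2-Eb1 with 0.824, while Ciita had 0.617 and H2-DMb1 0.401. With group means removed, the 3 chains and Cd74 had r of 0.952 to 0.984, H2-DMa 0.631, Ciita 0.623 and H2-DMb1 -0.00192. WT estradiol 3, KO estradiol 3 and WT placebo 2 were the 3 highest libraries for H2-Aa, H2-Ab1, H2-Eb1 and Cd74, and KO placebo 1 was the lowest for these and for H2-DMa. The summed CPM of the 7 was 289 and 399 in WT placebo, 317, 305 and 490 in WT estradiol, 231, 286 and 277 in KO placebo and 312, 332 and 442 in KO estradiol. Within WT estradiol alone the sum thus covered nearly the whole range above KO placebo, although the labels give its 3 libraries the same treatment.

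By the same measure over 13153 genes with a mean of at least 1 CPM, the 10 genes most like the profile were Usp39 (r = 0.944), Rcc1 (0.932), Syap1 (0.920), Mospd3 (0.898), Lsm3 (0.897), Nop58 (0.896), Sae1, Taf7, Tmed5 and Fam207a (0.882). None of them is on a list of antigen presentation or leukocyte genes used here. Ctss, the cathepsin that trims the invariant chain, had r = 0.783 (rank 144), Cd86 0.647 and the macrophage gene Adgre1 0.615, while Csf1r had 0.128. With group means removed, B2m followed the profile with r = 0.946 and C1qa, a complement gene of macrophages, with 0.908, while Csf1r had -0.405 and Ptprc, a gene of all leukocytes, -0.103. These are descriptions over 11 libraries that share groups, depth and dissection. The 10 skeletal muscle markers summed to 33.8 and 1045 CPM in WT placebo, 27.2 to 212 in WT estradiol, 69.5 to 616 in KO placebo and 9.38 to 12.3 in KO estradiol. Of 9 tested with estradiol in KO, edgeR called 0 and DESeq2 7. Whether muscle in the dissected tissue has a part in the class II values was not tested.

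The class II relatives outside the 7 had another pattern. H2-Ob encodes the beta chain of H2-DO, which restrains H2-DM and is made chiefly by B cells. It had 1.35 and 1.56 CPM in WT placebo, 0.671, 0.736 and 0.783 in WT estradiol, 6.30, 4.08 and 2.85 in KO placebo and 7.65, 7.48 and 4.51 in KO estradiol. Every KO library was above every WT library. Under estradiol, H2-Ob was higher in KO than in WT (log2 difference 3.15, SE 0.33, adjusted p = 0.000145), and under placebo the log2 difference was 1.60 (SE 0.36, adjusted p = 0.468). H2-Ob counts were 0.0594 to 0.129 of those of H2-Ab1 in KO estradiol and 0.0101 to 0.0144 in WT estradiol.

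H2-Oa, the alpha chain of H2-DO, had 1 to 2 counts in each WT estradiol library and 12 to 27 in each KO estradiol library, and was called (adjusted p = 0.0190); its fitted difference depends on the prior count and is not given. H2-DMb2, the other copy of the H2-DM beta chain, had 0.215 and 0.272 CPM in WT placebo, 0.197, 0.322 and 0.577 in WT estradiol, 1.06, 0.844 and 0.382 in KO placebo and 0.837, 1.54 and 1.39 in KO estradiol. Under estradiol it was higher in KO (log2 difference 1.77, SE 0.50, adjusted p = 0.0419). So 3 of 3 relatives tested were called higher in KO under estradiol (7.27% of genes) and 0 of 3 by edgeR in the other comparisons, where 2 had an unadjusted p under 0.05 under placebo and DESeq2 called H2-Ob there. The call of H2-Oa was lost without WT estradiol 1, 2 or 3 (adjusted p 0.0623, 0.0518 and 0.0761) or KO estradiol 2 (0.0730). The call of H2-DMb2 was lost without WT estradiol 1 or 2 (adjusted p 0.131 and 0.104), KO placebo 1 or 2 (0.0504 and 0.0573) or KO estradiol 2 or 3 (0.121 and 0.114). H2-Eb2 had 0 to 8 counts per library and H2-Ea-ps, the pseudogene that stands in place of a working E alpha gene in C57BL/6, had 0 counts in all 11, so neither was tested.

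**Figure D3:**
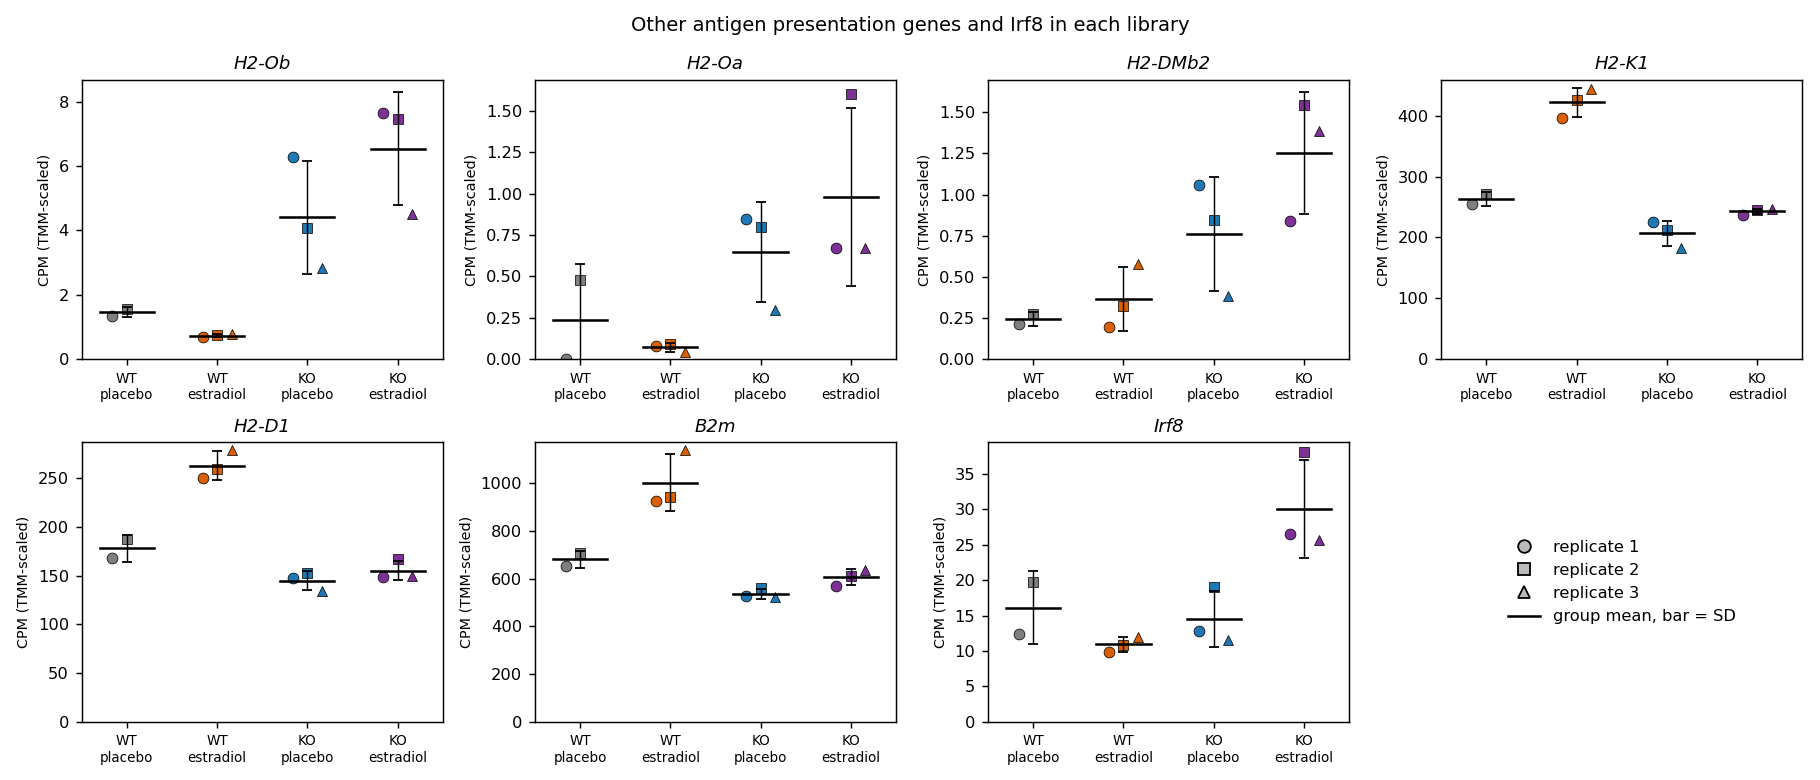
CPM of the class II relatives H2-Ob, H2-Oa and H2-DMb2, the class I genes H2-K1, H2-D1 and B2m, and Irf8 in each library, drawn as for the 7 members. H2-Ob was low in the 3 WT estradiol libraries and high in KO, while H2-K1 was highest in WT estradiol, at 397 to 444 CPM.

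Calls among the transcription factors tied to class II genes were mostly of interferon regulatory factors. Of 13 listed factors, 1 was called higher with estradiol in KO (2.36% of genes; with the block 2, Irf4 and Irf8, against 3.73%) and 3 were called higher in KO under estradiol (7.27% of genes), with medians of 0.21 and 0.17. Irf8, a factor of myeloid cells and B cells, had 12.4 and 19.7 CPM in WT placebo, 9.87, 10.9 and 12.0 in WT estradiol, 12.9, 19.0 and 11.6 in KO placebo and 26.6, 38.0 and 25.6 in KO estradiol. Like Ciita, Irf8 was higher in the 3 KO estradiol libraries than in all others. Irf8 rose with estradiol in KO (log2 difference 1.06, SE 0.23, adjusted p = 0.0351) and was higher in KO than in WT under estradiol (1.46, SE 0.23, adjusted p = 0.00248). The first of these calls was lost when 1 of 6 libraries was left out, namely WT estradiol 1, 2 or 3 (adjusted p 0.0573, 0.0640 and 0.0531), KO placebo 1 or 3 (0.150 and 0.0918) or KO estradiol 2 (0.116).

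Irf4, a factor of B cells and of some dendritic cells, had 1.03 to 1.74 CPM in WT estradiol and 17.4 to 37.9 CPM in KO estradiol, and was called (log2 difference 4.26, SE 0.46, adjusted p = 0.000538). Creb1, which binds the cyclic AMP response element, was 0.45 higher in KO under estradiol on the log2 scale (adjusted p = 0.0134, and 0.0508 without WT estradiol 1). Rfx5, the subunit of the factor that binds the X box, had 24.6 to 30.9 CPM over all libraries and log2 differences of -0.07 in WT and 0.04 in KO with estradiol. Spi1 had log2 differences of 0.26 and 0.21 in the same order, neither called. Interferon gamma is the classical inducer of Ciita, and its gene Ifng had 0 to 1 count per library. Of 15 tested genes of the interferon gamma axis, 2 were called, Ifngr2 (-0.36, adjusted p = 0.0147) and Jak1 (-0.40, adjusted p = 0.0169), both lower in KO under estradiol, where 4.20% of genes were. The call of Ifngr2 was lost without KO estradiol 1 (adjusted p 0.0546), and that of Jak1 without WT estradiol 2, KO estradiol 1 or KO estradiol 2 (0.0597, 0.0599 and 0.0501).

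Of 8 listed endosomal genes that prepare peptides, 5 were lower in KO than in WT under estradiol, against 4.20% of genes, and Ctss, Ctsl and Lgmn were not called by edgeR. All 8 had an unadjusted p under 0.05 there, as did 3909 of the 14531 genes. DESeq2 called 7 in that comparison (2225 genes in all), Ctss and Lgmn among them. With the replicate block 6 were called lower (642 genes in all), Ctss among them. The median of the 8 was -0.40. The 5 called by edgeR were Cst3, a cathepsin inhibitor (log2 difference -0.74, adjusted p = 0.000491), Ifi30, the lysosomal thiol reductase GILT (-0.57, adjusted p = 0.00144), and the cathepsins Ctsz (-0.49), Ctsd (-0.33) and Ctsb (-0.26, adjusted p = 0.0440). The call of Ctsb was lost without any single library but WT placebo 1 or 2 (adjusted p 0.0555 to 0.136), and that of Ctsd without KO estradiol 2 (0.0538). In the other comparisons edgeR called 0 of 8, with 1 to 3 at an unadjusted p under 0.05, and DESeq2 called Cst3 and Ifi30 with estradiol in WT and Cst3 for the interaction. Ctss had 64.8 and 80.8 CPM in WT placebo, 81.7, 85.3 and 119 in WT estradiol, 54.9, 49.8 and 58.4 in KO placebo and 55.1, 75.2 and 77.2 in KO estradiol, with no call by edgeR. Its KO estradiol libraries all lay below those of WT estradiol. Of the costimulatory genes, which give T cells the second signal, 1 of 7 tested was called (11.5% of genes): Cd86 was lower in KO under estradiol (log2 difference -1.10, SE 0.22, adjusted p = 0.00718), at 3.74 to 5.14 against 7.89 to 12.4 CPM. Cd80 had 0.577 to 1.48 CPM and no call.

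Class I genes, whose products present peptides from the cytosol on nearly all cells, gave calls with estradiol in WT. With estradiol in WT, 3 of 15 rose (0.654% of genes), H2-K1 (log2 difference 0.68, SE 0.10, adjusted p = 0.00349), H2-D1 (0.56, SE 0.10, adjusted p = 0.0107) and B2m (0.56, SE 0.11, adjusted p = 0.0215). H2-K1 had 256 and 271 CPM in WT placebo, 397, 426 and 444 in WT estradiol, 225, 212 and 183 in KO placebo and 237, 245 and 246 in KO estradiol. The same 3 genes were lower in KO than in WT under estradiol (H2-K1 by -0.80, H2-D1 by -0.76 and B2m by -0.73), together with Pdia3 and Nlrc5, the class I counterpart of CIITA (-0.81, adjusted p = 0.0147), so 5 of 15 against 4.20% of genes. The call of Nlrc5 was lost without WT estradiol 2 or KO estradiol 2 (adjusted p 0.0537 and 0.0553), and that of Pdia3 without WT estradiol 1 or 2, KO placebo 1, or KO estradiol 2 or 3 (0.0506 to 0.127). With estradiol in KO, edgeR called 0 of 15 (5 at an unadjusted p under 0.05), and DESeq2 called Psmb9, Tap1 and Psmb8. The interaction was not called by edgeR for H2-K1 (adjusted p = 0.133), H2-D1 (0.109) or B2m (0.268). Without WT placebo 1 the calls of H2-D1 and B2m in WT were lost, with adjusted p of 0.0813 and 0.115.

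Markers of the cells that make class II molecules moved between the groups in different directions. The 19 B lineage markers in the table summed to 97.3 and 108 CPM in WT placebo, 45.7 to 54.7 in WT estradiol, 141 to 288 in KO placebo and 273 to 462 in KO estradiol. Of 17 tested, 7 fell with estradiol in WT (0.895% of genes) and 16 were higher in KO than in WT under estradiol (7.27%). With estradiol in KO, 1 (Blnk) rose (2.36%), a call lost without WT estradiol 2, any 1 of the KO placebo libraries, or KO estradiol 1 or 2 (adjusted p 0.0503 to 0.117), and with the block 5 rose (3.73%). The markers of mature B cells, which present antigen, summed to 34.1 to 40.1 CPM in WT estradiol and 94.8 to 149 in KO estradiol, and 7 of 8 were called higher in KO under estradiol (7.27% of genes). Rag2 and Vpreb2 of the B lineage list were at 0 in WT estradiol 3, as were Rag1 and Cr2.

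The 15 macrophage markers were read in every library and summed to 1195 and 1239 CPM in WT placebo, 1333 to 1631 in WT estradiol, 1009 to 1088 in KO placebo and 1054 to 1656 in KO estradiol. Lyz2, 1 of the 15, weighed on these sums, with 5896, 14753 and 10705 raw counts in KO estradiol and 4663 to 8627 in the other libraries. The sums thus do not show the direction of most markers: the median log2 difference of the 15 between KO and WT under estradiol was -0.54. Under estradiol, 8 of 15 tested were lower in KO than in WT (4.20% of genes), among them Csf1r, the receptor that macrophages need (log2 difference -0.47, adjusted p = 0.00814), Cd68 (-0.58, adjusted p = 0.00146) and C1qc (-0.96, adjusted p = 0.00592). In the other comparisons edgeR called 0 of 15, with 9 at an unadjusted p under 0.05 for estradiol in WT and 1 in KO, and DESeq2 called Cd68, Adgre1 and C1qb in WT and Lyz2 in KO. The 8 osteoclast markers summed to 12542 to 12993 CPM in WT estradiol and 8166 to 9663 in KO estradiol. Of these, 5 were called lower in KO under estradiol (4.20% of genes), with a median of -0.55. With estradiol in WT, 2 of them were called higher (0.654% of genes). Whether osteoclasts have a part in the macrophage or endosomal gene values was not tested. Ciita per Csf1r count was 0.0153 to 0.0193 in KO estradiol and 0.00540 to 0.0120 in the other libraries, with no overlap. This is not separate evidence either, since Ciita alone separated these libraries and Csf1r was called lower in KO under estradiol.

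Dendritic cell markers were split. Mgl2, a lectin of dendritic cells and macrophages, had 3.01 and 2.99 CPM in WT placebo, 14.96, 12.0 and 24.7 in WT estradiol, 1.48, 2.72 and 1.996 in KO placebo and 2.29, 3.98 and 3.98 in KO estradiol. It rose with estradiol in WT (log2 difference 2.52, SE 0.36, adjusted p = 0.00405), the call of 1 of 13 tested (0.654% of genes). Under estradiol, 6 were higher in KO (Ccr7, Flt3, Cd209a, Ly75, Cd7 and Clec9a; 7.27% of genes) and Mgl2 and Itgax were lower (4.20%). The call of Itgax was lost without WT estradiol 3 or KO estradiol 2 or 3 (adjusted p 0.0563, 0.0525 and 0.0512), and that of Clec9a without WT estradiol 2 or 3 or any 1 of the KO estradiol libraries (0.0569 to 0.104). For estradiol in KO, edgeR called 0 of 13 (6 at an unadjusted p under 0.05), and with the block it called Ly75 and Siglech higher. Flt3, the growth factor receptor of dendritic cell precursors, had 0 counts in WT estradiol 2 and 3 and 13 to 64 in KO estradiol. Zbtb46, a factor of classical dendritic cells, had 5.52 to 8.68 CPM and no call. Tcf4, which many other cells express, made up 69.3% to 89.9% of the summed CPM of the 15 markers, and the other 14 summed to 31.2 and 36.8 CPM in WT placebo, 43.4 to 61.3 in WT estradiol, 23.9 to 33.1 in KO placebo and 33.6 to 47.8 in KO estradiol.

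Of the other leukocyte lists, that of neutrophils was high in KO estradiol. The 11 neutrophil markers summed to 1287, 4656 and 1607 CPM in KO estradiol, 8.45 to 44.4 in WT estradiol, 215 and 484 in WT placebo and 1.48 to 752 in KO placebo, and 7 of 11 were called higher in KO under estradiol (7.27% of genes). Ptprc, the leukocyte gene CD45, had 51.5, 113 and 62.1 CPM in KO estradiol and 27.3 to 47.8 in the other libraries. Ptprc was not called by edgeR between the genotypes under estradiol (log2 difference 0.80, SE 0.29, adjusted p = 0.112). In that comparison 2 of 5 genes of all leukocytes were higher in KO (7.27% of genes), Coro1a (2.45, adjusted p = 0.0125, and 0.0533 without WT estradiol 1) and Cd53. DESeq2 and the replicate block each called Ptprc, Cd53 and Coro1a there. The call of Cd53 was lost without any single library but KO placebo 2 or 3 or KO estradiol 1 (adjusted p 0.0554 to 0.122). For estradiol in KO, edgeR called 0 of these 5 (5 at an unadjusted p under 0.05), and with the block it called Ptprc, Cd53 and Coro1a higher. The 9 T and NK cell markers summed to 23.2 to 31.1 CPM in KO estradiol and 29.6 to 32.2 in WT estradiol. Cd4 had the most counts of the 9 in every library, 231 to 704, while Cd3e, Cd3d, Cd3g and Cd8a had 0 to 13. Of 4 tested, Lck and Nkg7 were higher (7.27% of genes) and Cd4 lower (4.20%) in KO under estradiol. Nkg7 was also called higher with estradiol in KO (2.36% of genes), a call lost without any 1 of the KO placebo libraries or KO estradiol 2 (adjusted p 0.0574 to 0.133). The call of Lck was lost without WT estradiol 1 or 2 or KO estradiol 2 (adjusted p 0.0771, 0.0632 and 0.0898), and that of Cd4 without WT estradiol 2 (0.0503). KO estradiol 2 had the highest Ptprc and neutrophil sum and, at 5.58 CPM, the highest Ciita, but not the highest H2-Aa, H2-Ab1, H2-Eb1 or Cd74. Whether the mix of these cells has a part in the class II values was not tested.

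**Figure D4:**
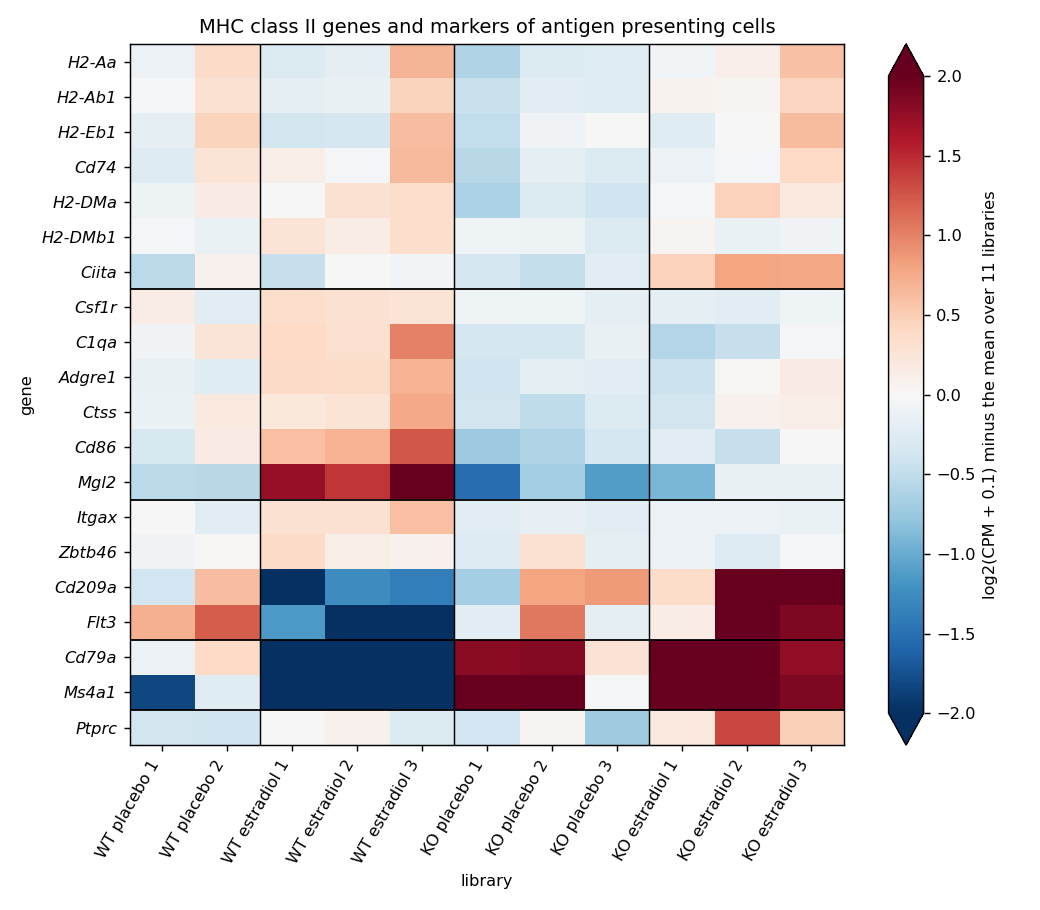
Levels of the 7 class II genes, macrophage genes with Ctss, Cd86 and Mgl2, dendritic cell genes, B cell genes and Ptprc (rows) in the 11 libraries (columns). Values are log2(CPM + 0.1) minus the mean of each row. Colours end at 2 and -2, and values past these have the end colour. Vertical lines separate WT placebo, WT estradiol, KO placebo and KO estradiol. The block of B cell genes is low in WT estradiol and high in KO estradiol while the class II rows vary less.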

How the data were processed

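Poly-A RNA of 11 libraries in 4 groups was sequenced. The submitters' processing notes name bcl2fastq 2.17, TopHat and mm9; the counting program, with its annotation and strand setting, is not given in the sources used here. Raw counts per gene symbol were deposited by the authors, with 0 columns left unmapped to a library, beside tables of pairwise comparisons. In those tables the effects are log2 fold changes with standard errors, per the file headers, and the significance values are adjusted p-values, per the file headers.

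All other values start from the counts. The filter of edgeR 4.0.16 (filterByExpr at its defaults, minimum count 10 and minimum total 15; R 4.3.3, limma 3.58.1) kept 14531 of 23420 symbols and 99.98% of counts. Libraries were scaled by TMM, and a robust quasi-likelihood model was fitted to the 4 groups over all 11 libraries, with 7 residual degrees of freedom. SE was obtained from the log2 difference and the root of F. Benjamini-Hochberg adjustment ran over all genes of a comparison. The interaction is the WT effect minus the KO effect. The scripts were tested on simulated data. Lists are described by counts and medians, and no set test was run.

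The alternatives were RLE scaling, no filter, DESeq2 1.42.0, the replicate number as a block, and leaving out each library. Lengths per kb are merged exons of GENCODE M21. Same-numbered KO placebo and KO estradiol libraries deviated together most clearly: their deviations from the group means correlated over 0.1 in 3 of 3 same-numbered pairs. These correlations come from the same counts as the tests. Deviations within a group sum to 0, so the r of same-numbered and of other pairs are not independent. Whether the numbers mark a pairing was not tested. In no other pair of groups did all same-numbered libraries pass 0.1. Spi1 and Adgre1 were matched through the older symbols Sfpi1 and Emr1, each counted once, and 4 rows with duplicated symbols were not used as list genes. Intervals and floors cover counting error or the spread between libraries only, since PCR copies cannot be told from separate molecules. No libraries of a group matched within sampling noise (chi-square per degree of freedom 9.91 to 184). The members and lists were chosen with earlier results of these data known. Named genes were all members, up to 4 called genes per list and comparison by p, a fixed set of markers, and the 10 genes most like the members; other list genes called in KO against WT under estradiol were named after their values were seen. Some list genes are counted in their lists but not reported by name here.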

Additional observations from a re-analysis of the deposited data

Results flagged for a closer look

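No class II member passed the test of the difference between the estradiol effects in WT and in KO. Values are given for 8 genes on the lists of other cells that did, each with edgeR's quasi-likelihood test. A negative value means that the effect in WT was below that in KO. The B lineage genes gave log2 values of -6.18 for Vpreb3 (adjusted p = 0.00177), -5.96 for Rag2 (adjusted p = 0.00358), -5.55 for Pou2af1 (adjusted p = 0.00974), -5.68 for Fcrla (adjusted p = 0.0358), -4.80 for Cd79a (adjusted p = 0.0237) and -3.87 for Pax5 (adjusted p = 0.0182). Nkg7, a gene of cytotoxic lymphocytes, gave -7.23 (adjusted p = 0.0114), and the endothelial gene Egfl7 gave 0.60 (adjusted p = 0.0438). When single libraries were left out, Vpreb3, Rag2 and Pou2af1 were called in each of the 11 fits. The call of Nkg7 was lost without WT placebo 2 or WT estradiol 1 (adjusted p 0.0689 and 0.0504), and that of Pax5 without WT placebo 1 or 2 or WT estradiol 1 or 2 (0.0623 to 0.0773). The calls of Cd79a (0.0540 to 0.122) and Fcrla (0.0742 to 0.127) were lost without any 1 of the WT libraries or KO estradiol 2. The call of Egfl7 was lost without any single library but WT placebo 2 or KO placebo 3 (0.0573 to 0.107), and with the replicate block (0.0516). Groups of 2 and 3 libraries are too small for a search for single outlying libraries.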

How the results depend on the processing

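For the 7 members, 480 of 525 values under the alternatives kept direction and side of the threshold, 29 changed direction, 10 lost a call and 6 gained one. For list genes that were called, 1118 of 1305 alternative values kept the call and 0 changed direction. With estradiol in KO, DESeq2 called 2 members (H2-DMa and Ciita), and leaving out single libraries gave 0 to 2; under estradiol, DESeq2 called 2 members between the genotypes (H2-DMb1 and Ciita), and leaving out libraries gave 0 to 1. Over all genes, DESeq2 called 656 with estradiol in WT against 225, 952 against 396 in KO, 561 against 167 for the interaction and 36 against 1 under placebo. Without single libraries these counts were 113 to 285 (fewest without WT estradiol 1), 105 to 505 (KO placebo 1), 68 to 270 (WT estradiol 1) and 1 to 50 (most without WT placebo 1), and 867 to 1850 under estradiol (fewest without KO estradiol 2). The cause was not tested.

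With the replicate number as a block, 4 members were called with estradiol in KO, where same-numbered libraries deviated together. The block called 629 genes in KO, 301 for the interaction and 17 under placebo, Ciita with estradiol in WT changed to -0.0104 on the log2 scale, and the call of H2-DMb2 in KO against WT under estradiol was lost (adjusted p = 0.0546). In the other 5 pairs of groups the same-numbered libraries had correlations of -0.203 to 0.198. Between WT placebo and WT estradiol these were -0.203 and -0.159, below the -0.0478 to 0.203 of libraries with unlike numbers. Between WT estradiol and KO estradiol these were 0.0505 to 0.0854, above the -0.0551 to -0.0148 of libraries with unlike numbers. Between WT placebo and KO estradiol they were 0.0978 to 0.135, against -0.135 to 0.0442. Whether the numbers pair these libraries weakly was not tested.

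Log2 differences that changed direction when a library was left out were all uncalled. With estradiol in WT the ranges were -0.38 to 0.27 for H2-Aa, -0.30 to 0.12 for H2-Ab1, -0.52 to 0.22 for H2-Eb1, -0.00626 to 0.54 for Cd74 and -0.27 to 0.39 for Ciita. Under placebo they were -0.63 to 0.000435 for H2-Eb1 and -0.45 to 0.21 for Ciita. Under estradiol they were -0.12 to 0.47 for H2-Aa, -0.00553 to 0.36 for H2-Ab1, -0.16 to 0.54 for H2-Eb1, -0.13 to 0.11 for H2-DMa and -0.34 to 0.0675 for Cd74, and for the interaction -0.43 to 0.11 for Cd74. Most ends came from leaving out WT placebo 1 or 2, WT estradiol 3 or KO estradiol 3. Groups of 2 or 3 libraries, and 40 to 123 counts of Ciita per library, limit the precision.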
